A study of Rattus norvegicus with 15 samples.

Results

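Aqp1, the gene of aquaporin 1, was described over 15 RNA-seq libraries of rat H9c2 cells. It was found by its symbol as 1 of the 11574 genes in the count table, with the identifier ENSRNOG00000011648, the cytogenetic band 4q24, a protein-coding annotation and a listed size of 2624 bases. The gene was chosen by its measured level over time and with retinoic acid, known from earlier results of these data, so its own levels and changes are given as a description with no test. H9c2 is a myoblast line, a continuous line of muscle precursor cells isolated from embryonic rat heart, so all libraries came from 1 line and none from primary cardiomyocytes. Cells were grown in 10% serum and then kept in 1% serum, a change that makes myoblasts stop dividing and fuse into myotubes. The T0 group was collected 24 h after seeding. Serum was lowered after these 24 h of attachment, so in comparisons with T0 the serum change and the time in culture cannot be told apart. The T7-RA and T14-RA groups were kept without retinoic acid (RA) for 7 and 14 days, and the T7+RA and T14+RA groups received all-trans RA at 1 µM for the same times. Each group held 3 wild-type libraries. Whether the cultures without RA received the solvent of RA is not given in the sources used here, so RA and solvent cannot be told apart.

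Aquaporins are membrane channels that let water cross the lipid bilayer along an osmotic gradient. Aquaporin 1 forms tetramers in which each subunit holds its own pore, and it is best known from red blood cells, kidney tubules and the endothelium of small vessels, including those of heart and skeletal muscle. The channel is also permeable to carbon dioxide, and for that reason it is often studied beside carbonic anhydrases and bicarbonate transporters. Retinoic acid acts through nuclear receptors (RAR and RXR) that bind pairs of a short DNA motif near their target genes.

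The promoter of Aqp1 is shown because the gene had one of the lowest RA changes in the table and because the cells were becoming muscle, where MEF2 factors act. The sequence is that of RefSeq for the rat build GRCr8, on the plus strand at chr4:85812534-85812783, and it holds the 250 bases before the annotated start of the gene, with a GC content of 65.2%. The counts were made on another build, Rnor_6.0 according to the submitters' processing notes, and none of the GRCr8 coordinates was used for them. The capitals mark the letters that match the MEF2 consensus and contain a TATA box.
Aqp1 promoter: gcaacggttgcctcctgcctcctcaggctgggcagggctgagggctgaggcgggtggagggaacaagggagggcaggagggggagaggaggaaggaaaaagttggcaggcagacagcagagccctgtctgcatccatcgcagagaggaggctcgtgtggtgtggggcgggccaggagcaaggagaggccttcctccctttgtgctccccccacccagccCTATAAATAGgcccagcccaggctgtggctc

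Letters were searched on both strands in the 250 bases of 33469 RefSeq rat promoters. The MEF2 match of Aqp1 began 31 bases before the start and overlapped the TATA box (TATAAA), which began 30 bases before the start. A MEF2 match was held by 1.68% of the promoters and a TATA box by 12.9%. A GC box (GGGCGG), a short motif bound by SP factors, began 87 bases before the start, and 30.5% of the promoters held one. The RAR half-site AGGTCA had no match in this window and was held by 4707 of the promoters. Its direct repeats with a spacing of 2 or 5 bases could therefore have none either, and these repeats occurred in 0 and 3 of the 33469 promoters. Only these exact letters were searched, so other forms of the half-site were not looked for. The E-box CANNTG, the motif of the myogenic factors, had no match in Aqp1 and 65.5% of promoters held one. These matches describe letters in 250 bases only, and no binding was measured.

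Library totals ranged from 508397 to 1030820 counts, with a median of 22 counts per gene and library. The biological coefficient of variation over all genes was 8.84%. The RA and muscle labels were checked on other genes. The RA-degrading enzyme gene Cyp26b1 had 0 to 2 counts in each library of T7-RA and T14-RA and 125 to 672 counts in each library of T7+RA and T14+RA. Of 17 markers of myoblasts and myotubes 14 were among the genes analysed, and their summed level had a median of 1025 CPM at T0 and 16994 CPM in T14-RA, without overlap of the 5 groups. CPM are counts scaled to the total of a library after TMM normalization (trimmed mean of M values, which balances library composition). Of 14 cardiomyocyte markers only Gata4 and Actc1 were among the genes analysed, and Actc1 is also made by developing skeletal muscle. The omission of any 1 library turned none of the 9 changes of Aqp1.

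Aqp1 had 1367 counts over the 15 libraries. At T0 the counts were 50, 18 and 24, which is 69.0, 33.8 and 50.3 CPM. In T7-RA they were 147, 156 and 133, or 175, 210 and 193 CPM. In T14-RA they were 355, 230 and 219, or 426, 407 and 371 CPM. Within these 3 groups each later group lay wholly above the earlier one. With RA the gene was close to the counting limit. In T7+RA the counts were 3, 6 and 5, or 4.28, 8.05 and 8.57 CPM, and in T14+RA each library had 7 counts, or 6.75, 11.0 and 12.7 CPM. The 6 libraries with RA lay below all 9 libraries without it, and only T7+RA and T14+RA overlapped each other. A count of 3 has an exact 95% Poisson interval of 0.619 to 8.77 counts and a count of 7 one of 2.81 to 14.4. These intervals cover counting error only and not the spread between cultures. The reads carried no molecular identifiers, so duplicate reads could not be told apart.

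**Figure D1:**
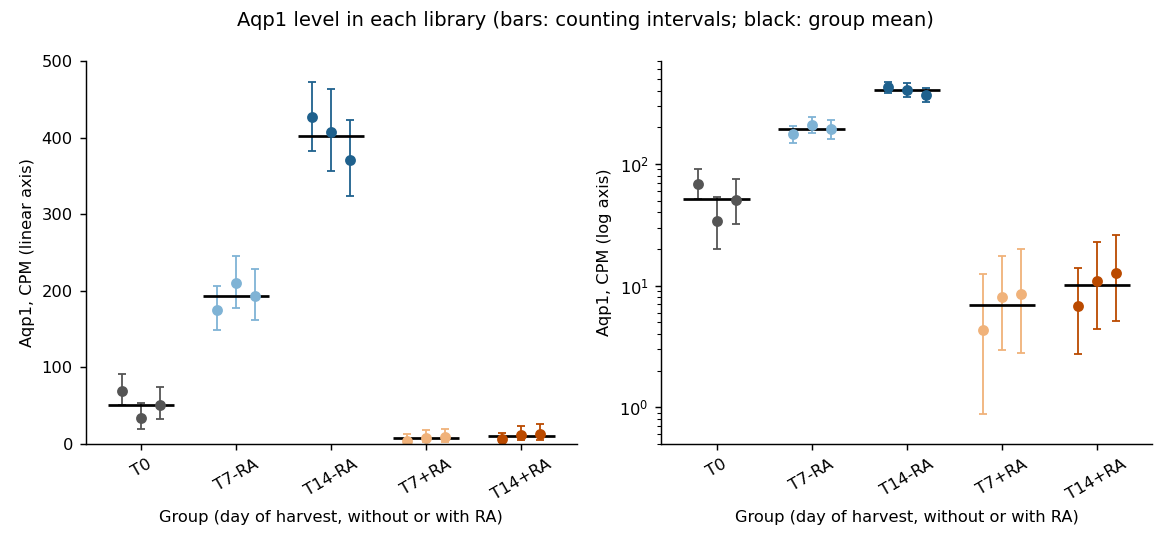
Aqp1 level in CPM (vertical axis, linear on the left and logarithmic on the right) in each of the 15 libraries (points), by group (horizontal axis). Vertical bars are exact 95% Poisson intervals of the counts and black lines are group means of 3 libraries: 51.0 CPM at T0, 193 in T7-RA, 402 in T14-RA, 6.97 in T7+RA and 10.1 for T14+RA.

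The group means were 51.0 ± 17.6 CPM at T0, 193 ± 17.1 in T7-RA, 402 ± 28.2 in T14-RA, 6.97 ± 2.34 in T7+RA and 10.1 ± 3.06 for T14+RA (SD, n = 3 for each). The order from low to high was therefore T7+RA, T14+RA, T0, T7-RA and T14-RA, and the libraries of the first pair overlapped in range. The relative spread was 7.03% of the mean in T14-RA and 8.90% in T7-RA, against 34.5% at T0 and, with RA, 33.7% at day 7 and 30.1% at day 14. The groups with the wide relative spread were those with few counts. Because the samples are bulk cultures, fewer cells that express Aqp1 and less Aqp1 RNA per cell cannot be told apart.

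Divided by the listed size, Aqp1 reached 153 CPM per kb in T14-RA and stood at rank 513 from the top, above 95.6% of the genes. In T7-RA it reached 73.4 CPM per kb and stood above 89.5% of the genes. At T0 it had 19.4 CPM per kb and stood above 59.8%. With RA it had 2.66 CPM per kb at day 7 and 3.87 at day 14, above 11.7% and 16.6% of the genes.

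The time course without RA asks how the gene moves while myoblasts become myotubes. Between T0 and T7-RA the level was 1.87 higher on the log2 scale (SE 0.189), which is 3.64-fold. The ratio of the summed counts, scaled by library size, was 3.62 with a 95% counting interval of 2.89 to 4.58. The difference was larger than the spread between replicates, as the groups did not overlap, and such non-overlap in the upward direction was found for 17.5% of all genes. Between T7-RA and T14-RA the level was 1.06 higher (SE 0.126, 2.09-fold, count ratio 2.11 with an interval of 1.87 to 2.37). Here too the groups did not overlap, as for 13.2% of all genes in that direction. Over the whole 14 days the difference was 2.93 (SE 0.183, 7.62-fold), in rank the 297th highest of all genes, and the groups did not overlap, as for 21.5% of all genes in that direction. The median of all genes was 0.02 for the first step and 0.00 for the second. The first and the second step share the T7-RA libraries and are not independent. The share of all genes that passed the test (adjusted p under 0.001, edgeR) was 8.78% for the first step and 2.95% for the second.

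The comparison at each day with and without RA asks what RA adds to culture time. At day 7 the difference of T7+RA from T7-RA was -4.76 on the log2 scale (SE 0.398), which is 27.2-fold lower, and the mean CPM was 96.4% lower with RA. The count ratio was 27.8 with a 95% counting interval of 16.4 to 51.3. At day 14 the difference was -5.38 (SE 0.328), which is 41.7-fold lower and 97.5% in mean CPM, with a count ratio of 42.8 and an interval of 27.8 to 69.6. The fold is large and its size uncertain, because 14 counts in T7+RA and 21 counts in T14+RA stand in the denominators. At both days all 3 libraries with RA lay below all 3 without it. Non-overlap in the downward direction was found for 12.6% of all genes at day 7 and for 13.9% at day 14. The comparisons of the 2 days share no library.

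In rank, the RA change of Aqp1 was the fifth most negative of the 11574 genes at day 7 and the ninth at day 14. Anxa8, Ms4a6bl and Postn were as low or lower at both days, and these 3 were named after their values were seen. Anxa8 and Ms4a6bl had 80 and 31 counts over all libraries and 0 CPM in both RA groups. Postn, the gene of the matrix protein periostin, had 5355 counts, and its changes were -5.27 at day 7 and -5.73 at day 14. Among the 8379 genes with at least 150 counts, Postn was the only other gene as low as Aqp1 at day 7. At day 14 there were 2 such genes, Postn and a processed transcript without a gene name (ENSRNOG00000019648, band 9q36). Postn differed from Aqp1 in its time course, since its mean was 1405 CPM at T0, then 744 CPM in T7-RA and 563 CPM in T14-RA.

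**Figure D2:**
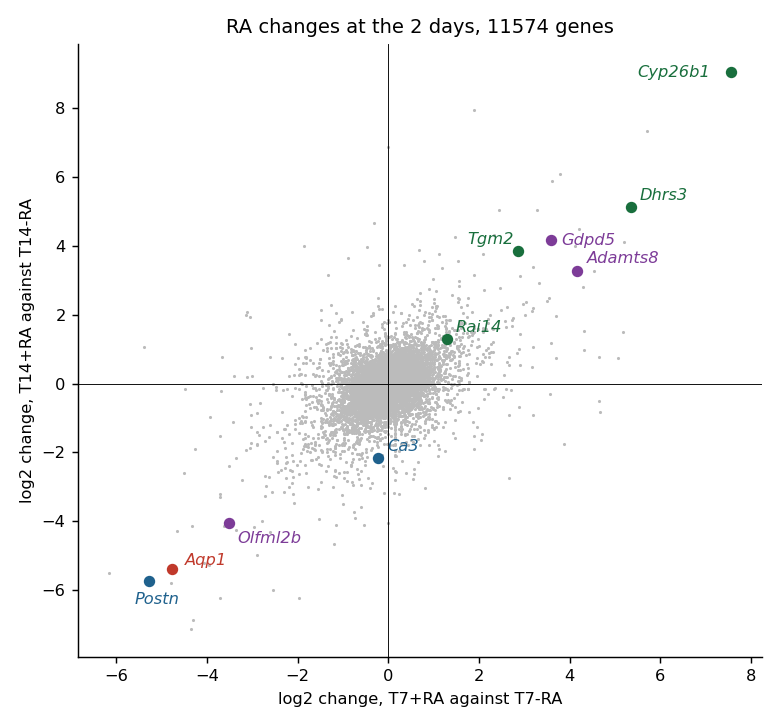
RA change on the log2 scale at day 7 (horizontal axis) and day 14 (vertical axis) for 11574 genes (grey points), with Aqp1, Postn, Ca3, 4 RA response genes and 3 genes from the list by likeness marked. Aqp1 lies at -4.76 and -5.38, at the lower left edge beside Postn, and Ca3 lies near 0 at day 7 and at -2.16 at day 14.

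The RA change at day 14 minus that at day 7 was -0.62 (SE 0.516). It was -0.31 without T14+RA replicate 1 and -0.87 without T7+RA replicate 1. For this difference 0.743% of all genes passed the test (adjusted p under 0.05, edgeR). The formula of the study has 1 term for each time and 1 for RA, and the study fitted it with limma. Fitted here with edgeR, the terms of Aqp1 were 1.89 (SE 0.191) for T7, 2.91 (SE 0.186) for T14 and -5.15 (SE 0.254) for RA. The terms were called for 8.73%, 17.3% and 6.39% of all genes.

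With RA, Aqp1 did not stay at its starting level but lay below it. The difference of T7+RA from T0 was -2.90 (SE 0.419, 7.46-fold lower), with a count ratio of 7.69 and an interval of 4.36 to 14.6. The difference of T14+RA from T0 was -2.45 (SE 0.357, 5.47-fold lower), with a count ratio of 5.62 and an interval of 3.47 to 9.50. The lowest library at T0 had 33.8 CPM and the highest with RA had 12.7 CPM. Non-overlap in this direction was found for 16.9% of all genes at day 7 and for 21.1% at day 14. From T7+RA to T14+RA the level was 0.45 higher (SE 0.500), and the count ratio of 1.37 had a counting interval of 0.664 to 2.91. The change was 0.19 without T7+RA replicate 1, 0.26 without T14+RA replicate 3 and 0.76 without T14+RA replicate 1. The step over the same days without RA was 1.06. These comparisons share groups with those above and add no independent evidence.

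Of the other 11 aquaporin genes of the list, only Aqp11 was among the genes analysed. Aqp11 encodes an unusual aquaporin of the endoplasmic reticulum. It had 38 counts over the 15 libraries, with group means of 3.48 CPM at T0, 2.38 in T7-RA, 3.51 in T14-RA, 5.38 in T7+RA and 4.07 for T14+RA. Per kb of listed size Aqp1 exceeded Aqp11 without RA, at 153 against 2.72 CPM per kb in T14-RA, while with RA the order differed between the days, at 2.66 against 4.16 in T7+RA and 3.87 against 3.15 in T14+RA. Aqp11 was not called in any comparison, and its RA changes were 1.22 at day 7 and 0.19 at day 14 (adjusted p = 0.505 and 0.943, edgeR). No change of Aqp11 was detected, and with 38 counts in all a small one could have been missed. The other 10 genes, among them Aqp4 of skeletal muscle fibres and the glycerol channel Aqp7, were not among the genes analysed here.

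A list of 40 genes of osmotic response and cell volume covered the solute transporters and channels that set the gradient along which water moves. Of these 30 were among the genes analysed, and 6 (20%) changed between T0 and T7-RA, beside 8.78% of all genes. Of these 5 rose, beside 4.23% of all genes, and 1 fell, beside 4.54%. Nfat5, the transcription factor of the response to high tonicity, rose by 1.00 (adjusted p = 8.31e-05, edgeR as for all tests of list genes). Trpm7, an ion channel with a kinase domain, rose by 0.79 (adjusted p = 0.000387), and Slc12a2, the sodium-potassium-chloride cotransporter NKCC1, by 0.78 (adjusted p = 0.000197). Atp1b3, a beta subunit of the sodium pump, rose by 0.57 (adjusted p = 0.000486), and Akr1b1, aldose reductase, which makes the osmolyte sorbitol, by 0.52 (adjusted p = 6.71e-05). The median change of the 30 genes was -0.18, against 0.02 over all genes. None of the 30 was called between T7-RA and T14-RA by edgeR, DESeq2 or limma at this threshold, and 7 were at an unadjusted p under 0.05. The count of 6 became 0 without T0 replicate 3 and 2 without T0 replicate 1, T7-RA replicate 1 or T7-RA replicate 3. The calls of Trpm7 (largest adjusted p = 0.00838) and Atp1b3 (0.00811) were each lost in 5 of the 15 omissions of 1 library.

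With RA, 1 of the 30 osmotic genes changed at day 7 (3.33%, beside 3.17% of all genes) and 5 at day 14 (16.7%, beside 4.81%). The share at day 7 was thus that of the whole table. Pkd2, the cation channel polycystin 2, was higher with RA at both days, by 0.66 (adjusted p = 8.27e-05) and 0.65 (adjusted p = 0.000185). Its levels were 163, 169 and 158 CPM in T7-RA and 271, 255 and 250 CPM in T7+RA, so the groups did not overlap, as for 11.8% of all genes in that direction. At day 14 Atp1b1, the other beta subunit of the sodium pump analysed here, rose by 0.77 (adjusted p = 0.00011). The taurine transporter Slc6a6 fell by 0.81 (adjusted p = 9.62e-07) and Ano6, a calcium-activated channel and lipid scramblase, by 0.61 (adjusted p = 0.000523). Slc6a6 was at 377, 313 and 410 CPM in T14-RA and at 227, 170 and 230 CPM in T14+RA. The median change of the list was 0.17 at day 7 and -0.07 at day 14, and none of the 30 was called for a different RA change between the days by edgeR, DESeq2 or limma (4 were at an unadjusted p under 0.05). The count of 5 at day 14 was 3 without T14-RA replicate 1 or T14+RA replicate 1, and 2 without T14-RA replicate 2, T14-RA replicate 3 or T14+RA replicate 3. The single call at day 7 was lost without T7-RA replicate 1 or T7+RA replicate 1, and without T0 replicate 2 there were 2 calls. The only one of these calls kept in every omission of 1 library was Slc6a6.

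A list of 40 genes of carbon dioxide and pH handling covered carbonic anhydrases, which interconvert carbon dioxide and bicarbonate, with bicarbonate, proton and lactate transporters. Of these 20 were among the genes analysed. Between T0 and T7-RA 3 of them changed (15%, beside 8.78% of all genes), and between T7-RA and T14-RA 2 did (10%, beside 2.95%), both upward (1.87% of all genes). Ca3, the carbonic anhydrase typical of skeletal muscle, rose at both steps, by 1.01 (adjusted p = 1.44e-14) and 1.16 (adjusted p = 2.07e-17). Slc16a1, the lactate transporter MCT1, rose by 1.16 at the first step (adjusted p = 0.000174), while Ca9, a membrane-bound carbonic anhydrase known from hypoxic cells, fell by 1.36 (adjusted p = 3.21e-07). Slc4a3, an anion exchanger of chloride and bicarbonate, rose by 1.30 at the second step (adjusted p = 6.51e-06). The median change of the 20 genes was 0.42 and 0.02 at the 2 steps. The call of Slc16a1 was lost without T0 replicate 1, T0 replicate 3 or T7-RA replicate 3 (largest adjusted p = 0.0114).

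With RA, 1 of the 20 genes changed at day 7 (5%, beside 3.17%) and 3 at day 14 (15%, beside 4.81%), all in the downward direction. Ca9 fell at day 7 by 1.48 (adjusted p = 0.000118). At day 14 Ca3 fell by 2.16 (adjusted p = 3.66e-30), Ca5b, a mitochondrial carbonic anhydrase, by 1.63 (adjusted p = 0.000506) and Slc4a3 by 1.19 (adjusted p = 1.8e-05). The medians over the list were 0.04 at both days. Without T14-RA replicate 1 or T14+RA replicate 1 only Ca3 was called at day 14, and Ca5b was lost in 5 omissions in all (largest adjusted p = 0.0216). The call of Ca9 was lost without T7-RA replicate 2, T7+RA replicate 1 or T7+RA replicate 3.

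Ca3 had the same order as Aqp1 in the time course without RA and another one with RA. Its levels were 1422, 1514 and 1239 CPM at T0, 2683, 2595 and 3124 CPM in T7-RA and 6191, 6371 and 6184 CPM in T14-RA. With RA they were 2319, 2385 and 2508 CPM at day 7 and 1460, 1421 and 1300 CPM at day 14. At day 7 the RA change of Ca3 was -0.22 (adjusted p = 0.124) and that of Aqp1 was -4.76. At day 14 Ca3 in T14+RA was at its T0 level, with a difference of 0.00 (SE 0.0894), whereas Aqp1 in T14+RA was below its T0 level. The RA change of Ca3 at day 14 minus that at day 7 was -1.94 (SE 0.122, adjusted p = 1.65e-19), and Ca3 was the only one of the 20 genes for which this difference passed the test, beside 0.458% of all genes in that direction. The difference between Ca3 and Aqp1 itself was not tested.

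**Figure D3:**
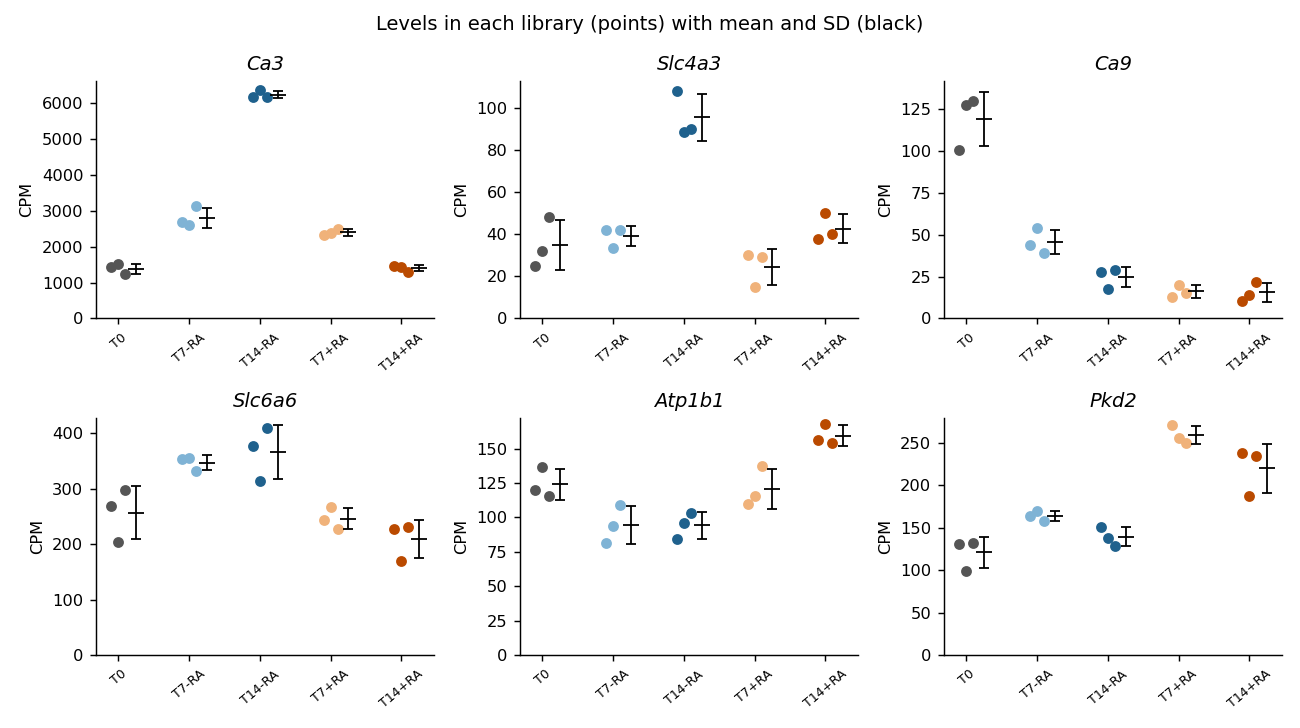
Levels in CPM (vertical axes, from 0) of 3 carbon dioxide and pH genes (top) and 3 osmotic genes (bottom) in the 5 groups (horizontal axes). Points are libraries and black marks are means with SD (n = 3), with Ca3 at 6249 CPM in T14-RA and 1394 CPM in T14+RA, and Pkd2 at 164 CPM in T7-RA and 259 CPM in T7+RA.

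A list of 12 retinoid response genes was used to see whether the RA libraries carried the known response to RA at both days. Of these 4 were among the genes analysed, and 4 of 4 rose at both days, beside 1.87% of all genes upward at day 7 and 2.46% at day 14. Cyp26b1 had 0 to 4 counts in each library without RA, so it was analysed only through the RA libraries where it was high. The list was also made with earlier results of these data known. These counts therefore describe the libraries and are no independent support. Dhrs3, an enzyme that returns retinaldehyde to retinol, rose by 5.34 at day 7 and 5.13 at day 14 (adjusted p = 4.56e-30 and 1.42e-31). Its levels without RA were 5.31 to 15.6 CPM at the 2 days. Tgm2, transglutaminase 2, rose by 2.86 and 3.85 (adjusted p = 4.2e-09 and 2.31e-11), and Rai14, named for its induction by RA, by 1.29 at both days (adjusted p = 1.97e-13 and 5.16e-14). For Cyp26b1 the ratio of summed counts was 228 at day 7 with a 95% counting interval of 62.6 to 1886, because 2 counts in all stood on the side without RA. At day 14 the ratio was 633 with an interval of 175 to 5236. Rai14 also fell by 0.94 between T0 and T7-RA (adjusted p = 1.5e-08). The receptor gene Rarb and the binding protein genes Crabp1 and Crabp2 were not among the genes analysed here.

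Aquaporin 1 is known from other cell types, so their markers were read beside its level. Of 12 endothelial markers Flt1, Tek and Egfl7 were among the genes analysed, while the defining Pecam1, Cdh5 and Kdr were not. Their summed level ranged from 91.9 to 112 CPM at T0, 58.1 to 82.0 in T7-RA, 55.3 to 66.0 in T14-RA, 36.0 to 45.6 in T7+RA and 30.9 to 34.4 for T14+RA. The sum was thus lower where Aqp1 was higher in the time course, and lower with RA, as Aqp1 was. At day 14 only Flt1 of the 3 was lower with RA. Flt1, a receptor of vascular growth factors, fell by 1.74 (adjusted p = 1.19e-05), from a mean of 44.0 CPM in T14-RA to 13.8 CPM in T14+RA. The changes of Tek and Egfl7 were 0.36 and 0.30 (adjusted p = 0.928 and 0.765), and the median of the list was 0.30. Of 16 erythroid markers 4 were among the genes analysed, Gypc, Tfrc and Ank1 among them, with no globin gene and no Alas2. Their sum ranged from 93.8 to 114 CPM at T0, from 166 to 240 CPM in the groups without RA and from 262 to 422 CPM in those with RA, so it was highest where Aqp1 was lowest. Of 8 analysed fibroblast markers out of 12, 3 fell with RA at day 7, beside 1.3% of all genes, and 5 fell and 1 rose at day 14, beside 2.35% downward and 2.46% upward. Their sum ranged from 33760 to 46519 CPM at T0, from 30374 to 34268 in T7-RA, from 31357 to 31983 in T14-RA, from 28490 to 31785 in T7+RA and from 24642 to 30966 for T14+RA. Most of it was the collagen gene Col1a1.

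Marker lists of adipocytes and of muscle moved with Aqp1 in part. Of 10 adipocyte markers Plin4, Lpl and Cebpa were among the genes analysed, while the defining Adipoq, Plin1 and Fabp4 were not. Their sum ranged from 16.9 to 21.0 CPM at T0, 44.1 to 71.2 in T7-RA, 84.1 to 86.8 in T14-RA, 22.8 to 27.1 in T7+RA and 34.4 to 59.7 for T14+RA. Lpl, lipoprotein lipase, made up most of it and rose by 1.55 between T0 and T7-RA (adjusted p = 2.6e-05) and fell by 1.22 with RA at day 7 (adjusted p = 0.000573). At day 14 the RA change of Lpl was -0.78 and was not called (adjusted p = 0.00836). In both RA groups the adipocyte sum stayed above its T0 range, while Aqp1 was below its own. The sum of the 14 muscle markers ranged from 1003 to 1041 CPM at T0, from 4647 to 5297 in T7-RA, from 16727 to 17065 in T14-RA, from 2768 to 3231 in T7+RA and from 7273 to 8390 for T14+RA. At day 7 4 of the 14 fell with RA and at day 14 7 of 14 did, beside 1.3% and 2.35% of all genes, and none rose. The muscle sum was thus lower with RA than without it at each day, as Aqp1 was, but in both RA groups it stayed above its T0 range while Aqp1 was below its own. The sum of Gata4 and Actc1 ranged from 248 to 288 CPM in T14-RA and from 30.9 to 61.3 CPM in T14+RA. The part of these cell states in the level of Aqp1 was not tested.

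The genes most like Aqp1 were named by Pearson's r of the log2 CPM with Aqp1 over the 15 libraries, among 8378 other genes with at least 150 counts. The libraries share groups and are not independent points, and the values are a description. The list depends on the measure, since 6 of the 10 most like genes were kept by Spearman's rho and 3 by r over the 5 group means. An r above 0.9 was found for 14 genes and one below -0.9 for 27. The highest value was that of Olfml2b, a secreted olfactomedin-like protein, with r = 0.989. Its means were 75.6 CPM at T0, 190 in T7-RA, 310 in T14-RA, 16.5 in T7+RA and 19.6 for T14+RA. It thus had the order of groups of Aqp1, with RA changes of -3.52 at day 7 and -4.05 at day 14.

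Next came Adamts1, a secreted metalloprotease, with r = 0.977 and the processed transcript ENSRNOG00000019648 with r = 0.977. The transcript had 74 counts at day 7 and 253 at day 14 without RA against 3 and 2 with RA, and its count ratio at day 14 was 142 with an interval of 38.8 to 1175. Dclk1, a microtubule-associated kinase (r = 0.965), went from 125 CPM in T14-RA to 7.81 CPM in T14+RA. Cilp, a matrix protein of cartilage (r = 0.956), had 179 counts in T14-RA and 5 in T14+RA, a ratio of 40.1 with an interval of 16.9 to 125. Sim2, a basic helix-loop-helix factor (r = 0.954), Svep1, a large adhesion protein of the matrix (r = 0.951), and Gpm6b, a membrane glycoprotein (r = 0.950), had RA changes between -2.30 and -1.58 on the log2 scale at the 2 days. S100a4, a calcium-binding protein (r = 0.935), and Ppfibp1, a liprin (r = 0.935), closed the list, with RA changes of -1.94 and -2.26 for S100a4 and of -0.45 and -0.78 for Ppfibp1. In all 10 genes the means of both RA groups were below that of T0, as in Aqp1, although the fold ranged widely.

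The 5 genes least like Aqp1 were higher with RA at both days. Adamts8, another secreted metalloprotease (r = -0.971), had means of 95.4 CPM at T0, 33.3 in T7-RA, 26.5 in T14-RA, 605 in T7+RA and 262 for T14+RA. Fam20c, a kinase of secreted proteins (r = -0.957), and Gdpd5, a phosphodiesterase (r = -0.952), had RA changes of 1.63 and 3.58 at day 7. Akap12, a scaffold of protein kinase A (r = -0.943), and Loxl2, an enzyme that cross-links collagen (r = -0.941), had RA changes of 3.50 and 1.89 at day 7. Each of the 5 had a lower mean in T7-RA and T14-RA than at T0.

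**Figure D4:**
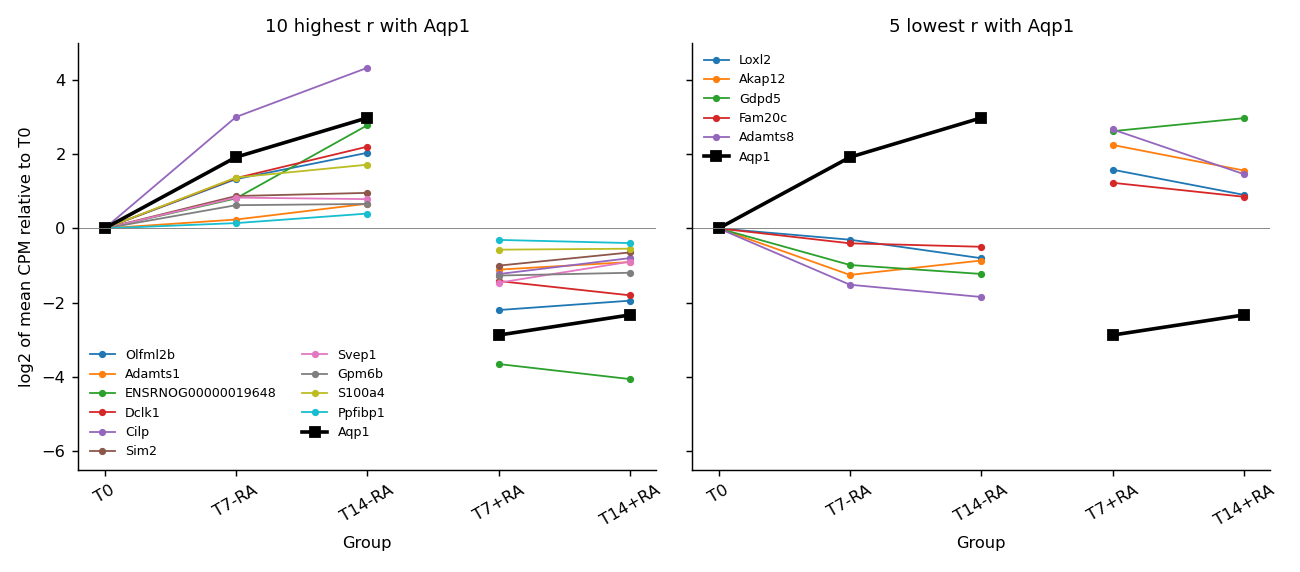
Group means of CPM relative to T0 on the log2 scale (vertical axis) in the 5 groups (horizontal axis) for Aqp1 (black squares) and the 10 genes with the highest (left) and 5 with the lowest (right) Pearson r. Lines join the groups without RA and, apart from them, the groups with RA. The 10 genes on the left lie above 0 without RA and below 0 with RA, and the 5 on the right the reverse.

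The neighbours of Aqp1 were taken from the order of genes in RefSeq, without coordinates. On the upstream side in that order stand the noncoding LOC102550746, Inmt and Mindy4, and on the other side Ghrhr, the noncoding LOC102551107 and Adcyap1r1, and none of the 6 overlaps Aqp1. Only Mindy4, a deubiquitinase, was among the genes analysed, with 92 counts. Its means were 10.6 CPM at T0, 10.2 in T7-RA, 10.6 in T14-RA, 6.23 in T7+RA and 8.13 for T14+RA. Its RA changes were -0.65 and -0.44 (adjusted p = 0.621 and 0.711), and its change from T0 to T7-RA was -0.04 (adjusted p = 0.973). No change of Mindy4 was detected, and with 92 counts in all a small one could have been missed.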

How the data were processed

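Poly(A) RNA of 15 H9c2 cultures (5 groups, n = 3 libraries each) was sequenced with stranded paired-end libraries. The authors trimmed the reads on Galaxy, aligned them to rat with HISAT2 (Rnor_6.0 in the submitters' processing notes), counted them per gene with featureCounts and deposited raw counts for genes with more than 20 counts over the libraries. The smallest sum was 21. The strand setting, the annotation release and the tool versions are not given in the sources used here, so reads of overlapping genes cannot be told apart. The deposited size of a gene was taken as that of its longest transcript. Groups came from the sample titles. A cell line label that runs on from H9c2 in number was read as H9c2, as the titles say.

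Here counts were normalized by TMM and fitted with 5 group means in edgeR 4.0.16 (R 4.3.3, quasi-likelihood, robust), with Benjamini-Hochberg adjustment over 11574 genes. Calls were made at an adjusted p under 0.001, and under 0.05 for the difference between days. The standard errors come from that fit. Log2 CPM used a prior count of 2. Gene lists and the gene itself were chosen with earlier results of these data known. Named genes were Aqp1, analysed aquaporins, called list members (up to 4 by size in each direction, and Akr1b1 and Postn beyond that), the 10 most and 5 least like genes and 3 neighbours on each side. Some list members that count in the totals are not reported here by name. Symbols of 5 carbonic anhydrases were matched through RefSeq synonyms. The scripts were tested on simulated data. Replicate libraries differed by more than counting error (smallest chi-square per gene 1.07), so all were kept. The p-values measure the spread between these libraries. The shared replicate numbers were checked as a pairing. Each library's departures from its group mean correlated on average at 0.0321 with those of libraries of the same number (30 pairs). With the rest the average was -0.0160 (60 pairs). Departures cancel within a group, so the second average follows closely from the first and is no separate evidence. The same-number average was small, and the numbers were not used to pair. A fit with a replicate block called more genes in each of the 5 comparisons. Alternatives were other size factors, DESeq2 1.42.0, limma 3.58.1, filters on low counts, a replicate block, thinned counts, other thresholds and each library left out.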

Additional observations from a re-analysis of the deposited data

Results flagged for a closer look

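The RA change differed between the 2 days, by the test of the difference itself (edgeR, adjusted p under 0.05), for 3 genes of the lists. For Ca3, muscle carbonic anhydrase, the difference of day 14 minus day 7 was -1.94 (SE 0.122, adjusted p = 1.65e-19), and all 3 libraries of T14+RA lay below all 3 of T14-RA. For Mymk, the fusion protein myomaker, it was -1.34 (SE 0.341, adjusted p = 0.0322), from an RA change of -0.93 at day 7 to one of -2.28 at day 14. For Myod1, the myogenic transcription factor, it was -1.04 (SE 0.267, adjusted p = 0.0369), from 0.77 to -0.28. Of the 14 analysed muscle markers 2 were thus called, beside 0.743% of all genes.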

How the results depend on the processing

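Over 24 alternatives each, the 9 changes of Aqp1 kept their direction. With 1 library left out they ranged from 1.65 to 2.21 for T7-RA against T0, 1.00 to 1.13 for T14-RA against T7-RA, -4.91 to -4.51 for RA at day 7, -5.55 to -5.07 for RA at day 14, -0.87 to -0.31 for the difference of the days and 0.19 to 0.76 for T14+RA against T7+RA. By limma-trend the RA changes were -4.33 and -4.98. A filter of at least 10 counts in every library removed Aqp1, and TPM values were not used here, so these alternatives gave no value. The replicate block gave -4.77 and -5.39 for the RA changes and changed no list count by over 1.5 times (genes called 1151, 400, 429, 628 and 118 for the 5 comparisons, in the order of the text).

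Genes called were 240, 56, 97, 157 and 22 with quantile-normalized limma, and 2612, 902, 858, 1291 and 25 at the other threshold (0.05, and 0.001 for the difference of the days), against 1016, 342, 367, 557 and 86. The second comparison had 223 calls with limma-trend and 209 with at least 10 counts. With 1 library left out the counts ranged from 692 to 1051, 200 to 420, 273 to 432, 376 to 657 and 51 to 129. The low counts of the second comparison were 217 without T7-RA replicate 1, 200 without T7-RA replicate 2 and 207 without T14-RA replicate 1, and those of the difference 57 without T14-RA replicate 1, 56 without T7+RA replicate 2, 51 without T7+RA replicate 3 and 56 without T14+RA replicate 1.

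Osmotic genes called at T7-RA against T0 were 3 with DESeq2, 0 with quantile limma and 12 at 0.05, and ranged from 0 to 7 with 1 library left out. At the second step 1 was called at 0.05. For RA at day 7 the count was 0 with limma-trend and quantile limma and 5 at 0.05 (0 to 2 with 1 library left out), and at day 14 it was 1 with DESeq2, 3 with limma-trend, 0 with quantile limma and 3 with thinned counts (2 to 6). Carbon dioxide and pH genes called were 1 with quantile limma and 6 at 0.05 at the first step (2 to 4), 1 with limma-trend, 0 with quantile limma and 4 at 0.05 at the second (2 in every omission), 0 with quantile limma and with at least 10 counts for RA at day 7 (0 to 1), and 1 with limma-trend or quantile limma and 6 at 0.05 at day 14 (1 to 3). Of the retinoid genes 0 were called at the first step with quantile limma, and 1 at each day with at least 10 counts, a filter that removed the other genes. Of the 10 genes most like Aqp1, 6 were kept by Spearman's rho and 3 by group means. The cause of these differences was not tested. Of 878 alternatives of 36 tested gene results 772 kept the side of the threshold, 106 lost it and 0 reversed. Counts of 3 to 7 with RA limit the precision of the Aqp1 folds.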
